A study of Mus musculus with 12 samples.

Results

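Iron storage, iron uptake, iron sensing and heme handling were followed through 10 genes in sorted brain cells of old mice. The genes were *Fth1*, *Ftl1*, *Ncoa4*, *Tfrc*, *Hfe*, *Cp*, *Aco1*, *Ireb2*, *Hmox1* and *Bach1*, chosen by name and found in the count matrix by their Ensembl identifiers. All 10 of the 10 were present among 47643 genes and had at least 10 counts in the 10 libraries together, as 12270 genes did. The libraries came from 5 male p16-3MR mice on a C57BL/6 background, aged 113, 115, 116, 116 and 116 weeks (mice 1 to 5). In this transgenic line a red fluorescent protein is made from the p16 promoter, and each mouse gave 1 library of viable brain cells with low fluorescence (RFPneg) and 1 with high fluorescence (RFPpos). No treatment separated the groups, all animals carried the transgene, and fluorescence reports the promoter of the transgene, not the endogenous transcript. *Cdkn2a*, the gene that encodes p16, had 2, 0, 0, 2 and 4 counts in RFPneg1 to RFPneg5 and 0 in all RFPpos libraries together, where a 0 allows up to 3 counts in sum. These few counts run opposite to the label of the sort, but they do not tell the p16 transcript from other transcripts of *Cdkn2a*. The study describes its sorted cells as richer in p16 transcript, in a measurement not analysed here. The libraries were 3′ tag libraries, in which each transcript yields a tag near its end, so that levels of different genes were compared without dividing by length. Between 177287 and 415834 counts fell on genes in RFPneg and between 222560 and 289713 in RFPpos. Reads on no gene made up 35.5%, 33.1%, 32.1%, 36.7% and 37.2% in RFPneg1 to RFPneg5 and 38.4%, 42.1%, 38.5%, 39.8% and 48.6% in RFPpos1 to RFPpos5, higher in RFPpos in 5 of 5 mice and without overlap. On average 12908 genes were detected in RFPneg and 11208.6 in RFPpos. The part of these differences in the results below was not tested beyond counting such reads in the library sizes and thinning counts to the smallest library. Counting such reads left no member passing as higher, while thinning left 2 members higher and 3 lower.

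Iron enters most cells bound to transferrin, through the transferrin receptor encoded by *Tfrc*, and is stored inside ferritin shells built from the heavy chain of *Fth1* and the light chain of *Ftl1*. The iron regulatory proteins, encoded by *Aco1* and *Ireb2*, bind a short RNA hairpin called the iron-responsive element when cellular iron is low. Bound near the start of an mRNA, as in the ferritins, they block its translation, while bound in the 3′ UTR of *Tfrc* they protect the mRNA from decay. In the brain, transferrin receptor is abundant on the endothelial cells of the blood-brain barrier, and microglia are rich in ferritin.

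The hairpins that tie these genes together were read from GENCODE M21 transcripts (GRCm38) and are printed because they distinguish the members that share this control. The search asked for a C, any 5 bases, the loop CAGTGN and 5 bases that pair with the first 5, G with T allowed, on the transcribed strand. Capitals mark the 6 bases of the loop.
*Fth1*, 5′ UTR, chr19:9982732-9982761, plus strand: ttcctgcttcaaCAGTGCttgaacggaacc
*Ftl1*, 5′ UTR, chr7:45459778-45459807, minus strand: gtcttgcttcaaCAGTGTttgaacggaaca
*Tfrc*, 3′ UTR, chr16:32631219-32631248, plus strand: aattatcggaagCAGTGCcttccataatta
*Tfrc*, 3′ UTR, chr16:32631598-32631627, plus strand: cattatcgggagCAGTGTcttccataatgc
*Tfrc*, 3′ UTR, chr16:32631663-32631692, plus strand: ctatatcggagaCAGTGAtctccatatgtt
*Tfrc*, 3′ UTR, chr16:32631710-32631739, plus strand: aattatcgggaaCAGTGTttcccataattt
*Slc40a1*, 5′ UTR, chr1:45925464-45925493, minus strand: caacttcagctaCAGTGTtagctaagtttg
Among 21901 protein-coding genes, with 1 transcript each, 21 had such a hairpin in the 5′ UTR (0.0959%) and 110 in the 3′ UTR (0.502%). *Tfrc* was the 1 gene with 2 or more in its 3′ UTR. The other 7 members had no match in either UTR of the transcript searched. *Slc40a1*, which encodes the iron exporter ferroportin, is shown for comparison because it carries the same kind of hairpin as the ferritins. A match is a description, not a site or a cause.

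Of the 10 genes, 2 were higher and 3 were lower in RFPpos at an adjusted p under 0.05. Over all 12270 genes tested, 4.25% passed as higher, 7.49% as lower and 11.7% in either direction. *Hfe* and *Bach1* were higher, and *Tfrc*, *Cp* and *Fth1* were lower, although *Hfe* and *Bach1* were near 0 (−0.11 and −0.04) when libraries were scaled to microglia genes, a scale that moved the median of all genes by −1.10, and the call of *Fth1* was lost in 8 of 17 other fits. For the members the median log2 fold change was −0.15, and over every gene tested it was also −0.15. CPM, the unit of level used below, divides a count by its library's total on genes, itself scaled by the trimmed mean of M values (TMM). *Fth1* was the most abundant member in both populations. In RFPneg it was followed by *Cp* and *Tfrc*, whose means of 158 and 153 CPM differed by less than their spread, and in RFPpos by *Hfe* and *Bach1*, at 142 and 115 CPM, which were also within their spread. *Cp* and *Tfrc* were thus ranked 2 and 3 among the members in RFPneg but 7 and 8 in RFPpos. Because these are bulk samples, fewer cells of a type and less RNA per cell cannot be told apart.

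**Figure D1:**
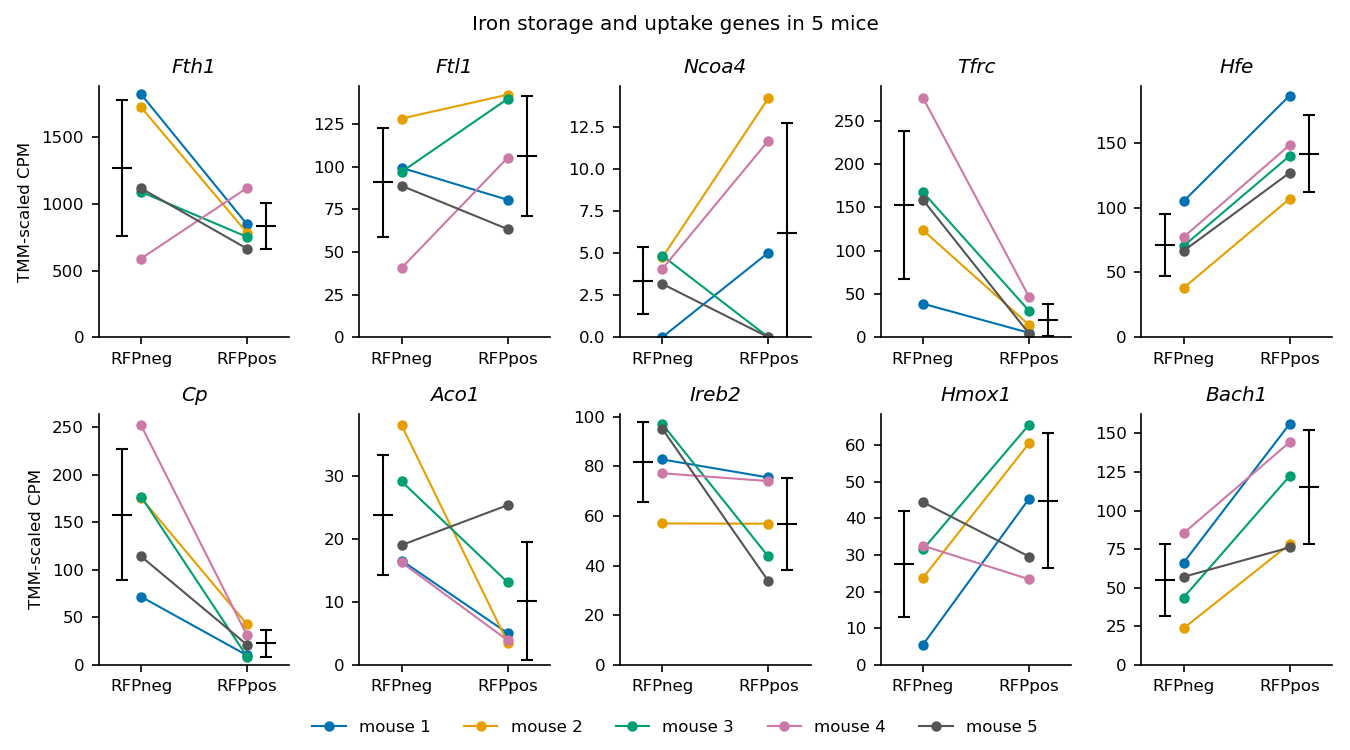
TMM-scaled CPM (vertical axis, from 0) of the 10 genes in RFPneg and RFPpos, with a line for each of 5 mice; black marks are the group mean and its SD (n = 5), cut at 0 for *Ncoa4*. *Tfrc* and *Cp* lie lower in RFPpos and *Hfe* and *Bach1* higher in 5 of 5 mice, while the line of mouse 4 crosses the others for *Fth1*; relative to microglia genes *Hfe* and *Bach1* had log2 fold changes of −0.11 and −0.04.

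*Fth1* (ENSMUSG00000024661, chr19:9980598-9985098) encodes the ferritin heavy chain, which oxidises iron for storage. Its level was 1822, 1725, 1089.7, 589.6 and 1117 CPM in RFPneg1 to RFPneg5 and 846, 783, 752, 1119.6 and 664 CPM in RFPpos1 to RFPpos5. The groups overlapped: RFPpos was lower in mice 1, 2, 3 and 5 and higher in mouse 4, which had the lowest RFPneg level and the highest RFPpos level. The means were 1269 ± 508 CPM in RFPneg and 833 ± 173 CPM in RFPpos (SD, n = 5 each). RFPpos differed by a log2 fold change of −0.54, with a 95% interval of −0.87 to −0.21 and an adjusted p of 0.0164 in edgeR's quasi-likelihood test. This call depended on the fit. The adjusted p was 0.0845 with edgeR's likelihood ratio test, 0.235 with DESeq2 and 0.153 with edgeR's adjustment for small counts. It was 0.174 with a stricter filter on counts (filterByExpr). With that filter the quasi-likelihood p before adjustment was 0.0615, against 0.00145 in the main fit. Over 17 other fits the adjusted p lay between 9.84e-20 and 0.332. Without mouse 4 it was 4.57e-05, and without mouse 1, 2, 3 or 5 it was 0.266, 0.332, 0.0919 or 0.0981. The log2 fold change was negative in each of these fits. It was −0.35 without mouse 2 and −0.88 without mouse 4, and it stayed at −0.54 with the likelihood ratio test, DESeq2 and the stricter filter.

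*Ftl1* (ENSMUSG00000050708, chr7:45457944-45459884) encodes the light chain, which helps the mineral core to form. It had 99.4, 128, 97.1, 40.7 and 88.8 CPM in RFPneg1 to RFPneg5 and 80.6, 142, 139.9, 105 and 63.4 CPM in RFPpos1 to RFPpos5. The groups overlapped over most of their range, with 3 mice higher in RFPpos and 2 lower. Between the groups the log2 fold change was 0.24, with a 95% interval of −0.34 to 0.83 (adjusted p = 0.741 from edgeR), and it was −0.89 (adjusted p = 0.0159) relative to microglia genes. Leaving out 1 mouse gave from 0.01 (without mouse 4) to 0.43 (without mouse 5). Levels of *Ftl1* are uncertain, because of the 451 words of 50 bases in the last 500 bases of its transcript, 365 (80.9%) also occur in transcripts of other genes, most of them in its copy *Ftl1-ps1*. *Ftl1-ps1* itself had 0 counts, and the pseudogenes *Ftl1-ps2*, *Gm12164* and *Gm15590* had 2, 1 and 1. For *Fth1* the share was 12.9%, all in the pseudogene *Gm6977*, which had 11 counts, and for the other 8 genes it was 0.

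The ratio of both chains was compared within libraries, where scaling between libraries has no part. There were 18.3, 13.4, 11.2, 14.5 and 12.6 *Fth1* counts for each *Ftl1* count in RFPneg1 to RFPneg5 and 10.5, 5.50, 5.38, 10.6 and 10.5 in RFPpos1 to RFPpos5. Every RFPneg library lay above every RFPpos library, although RFPneg3 (11.2) was close to the highest RFPpos value. On the log2 scale, with 0.5 added to each count, the ratio was 3.76 ± 0.256 in RFPneg and 2.99 ± 0.512 in RFPpos (SD, n = 5 each), and it was lower in RFPpos in 5 of 5 mice. The mean difference was −0.77, as large in 2 of 32 exchanges of the labels inside mice, which is the smallest number that 5 pairs allow and too few pairs to pass. Adding the pseudogene counts, few beside those of their parent genes, gave −0.77. The deposited counts list 0 reads that align to several places, so the part of such reads in the ratio could not be tested. *Fth1* and *Ftl1* together took 0.196%, 0.199%, 0.118%, 0.0624% and 0.127% of the gene counts in RFPneg1 to RFPneg5 and 0.0827%, 0.0897%, 0.0915%, 0.125% and 0.0708% in RFPpos1 to RFPpos5. The share was lower in RFPpos in 4 of 5 mice, with mouse 4 the other way, and did not pass (exact permutation test within mice, two-sided, p = 0.25).

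**Figure D2:**
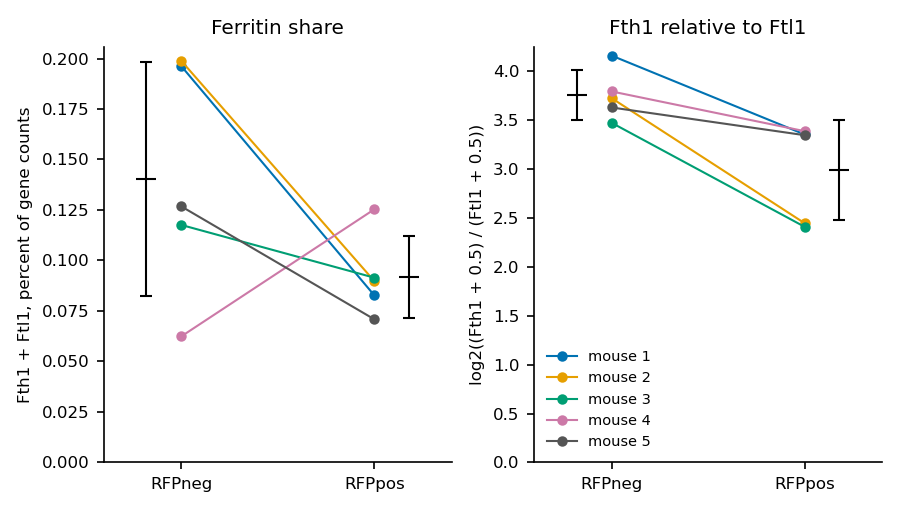
Left, *Fth1* and *Ftl1* counts as a percent of gene counts; right, the log2 ratio of *Fth1* to *Ftl1* counts with 0.5 added to each, for RFPneg and RFPpos with a line for each of 5 mice and the group mean and SD in black. The ratio is lower in RFPpos in each mouse, with a mean difference of −0.77, and the share in 4 of 5.

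*Ncoa4* (ENSMUSG00000056234, chr14:32159865-32179855), the receptor that carries ferritin to the lysosome for iron release, was barely detected. It had 0, 1, 2, 1 and 1 counts in RFPneg1 to RFPneg5 and 1, 4, 0, 3 and 0 in RFPpos1 to RFPpos5. A difference was not detectable at this depth: the log2 fold change of 0.42 had a 95% interval of −2.37 to 3.21.

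*Tfrc* (ENSMUSG00000022797, chr16:32608920-32632794), the transferrin receptor, had 38.7, 124, 167, 277 and 159 CPM in RFPneg1 to RFPneg5 and 5.04, 14.2, 30.6, 46.8 and 4.23 CPM in RFPpos1 to RFPpos5. RFPneg1 was low and RFPneg4 high within their group, and only RFPpos4 exceeded the lowest RFPneg library. The means were 153 ± 85.8 and 20.2 ± 18.3 CPM (SD, n = 5 each), from 220 and 25 counts. This is a log2 fold change of −2.96, with a 95% interval of −3.70 to −2.22 and an adjusted p of 5.46e-13 (edgeR), lower in RFPpos in 5 of 5 mice. It was negative and passed in 17 of 17 other fits, with adjusted p-values up to 4.61e-05. The 10 endothelial markers moved with it. All 10 passed as lower in RFPpos, with a median log2 fold change of −5.19, and none was at 0 in either population. Their summed share of counts was 0.175%, 0.546%, 0.590%, 0.741% and 0.448% in RFPneg1 to RFPneg5 and 0.00899%, 0.0179%, 0.0161%, 0.0363% and 0.0231% in RFPpos1 to RFPpos5. Like *Tfrc*, this share was lowest in RFPneg1 and highest in RFPneg4 among RFPneg libraries and highest in RFPpos4 among RFPpos libraries. RFPneg2 and RFPneg5 were in opposite order for *Tfrc* and this share. The share of neuron markers was also lowest in RFPneg1 (0.0186%) and highest in RFPneg4 (0.0455%), but lowest in RFPpos4 (0.00439%) among RFPpos. RFPpos4 was also the highest RFPpos library for the pericyte, astrocyte and choroid plexus lists described below. At the low end of RFPpos the order of *Tfrc* cannot be read, with 1 count each in RFPpos1 and RFPpos5. The most abundant endothelial marker was *Flt1*, a receptor for vascular growth factors. It had 1257 ± 495 CPM in RFPneg and 33.5 ± 19.9 CPM in RFPpos (SD, n = 5 each). The part of endothelial cells in the difference of *Tfrc* was not tested.

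*Hfe* (ENSMUSG00000006611, chr13:23702034-23710854) encodes a membrane protein that binds transferrin receptor and takes part in iron sensing. It had 105, 38.0, 70.4, 77.3 and 66.6 CPM in RFPneg1 to RFPneg5 and 186, 107, 139.9, 148 and 127 CPM in RFPpos1 to RFPpos5. The groups did not overlap, but the lowest RFPpos library, RFPpos2, lay just above the highest RFPneg library, RFPneg1. The means were 71.4 ± 24.0 and 142 ± 29.5 CPM (SD, n = 5 each). *Hfe* was higher in 5 of 5 mice, by a log2 fold change of 1.01 with a 95% interval of 0.43 to 1.58 and an adjusted p of 0.00792 (edgeR), but by −0.11 relative to microglia genes (adjusted p = 0.795). The adjusted p was 0.0634 with DESeq2 and 0.0667 when reads on no gene were counted in the library sizes.

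*Cp* (ENSMUSG00000003617, chr3:19957054-20009145) encodes ceruloplasmin, a copper ferroxidase that helps iron leave cells and that astrocytes carry on their surface. It had 71.8, 176, 177, 252 and 114 CPM in RFPneg1 to RFPneg5 and 10.1, 42.7, 8.74, 31.2 and 21.1 CPM in RFPpos1 to RFPpos5. The groups did not overlap, and RFPneg1 and RFPneg4 were again the lowest and the highest of RFPneg. The means were 158 ± 68.7 and 22.8 ± 14.4 CPM (SD, n = 5 each), from 221 and 29 counts. *Cp* was lower in 5 of 5 mice, by a log2 fold change of −2.78 with a 95% interval of −3.48 to −2.07 and an adjusted p of 1.27e-12 (edgeR). It was negative and passed in 17 of 17 other fits, with adjusted p-values up to 3.27e-06. Exons of *Cp* overlap those of *Hps3* on the opposite strand, and whether the counting used strand is not given in the sources used here. *Hps3* went the other way, higher in RFPpos by 1.00 on the log2 scale (adjusted p = 0.0106 from edgeR). Of 8 astrocyte markers 2 passed as lower and none as higher, with a median log2 fold change of −0.41. Their summed share was 0.376%, 0.541%, 0.479%, 0.372% and 0.437% in RFPneg1 to RFPneg5 and 0.0903%, 0.273%, 0.529%, 0.547% and 0.443% in RFPpos1 to RFPpos5. The groups overlapped, with RFPpos higher in 3 of 5 mice, while RFPpos1 and RFPpos2 lay below every RFPneg library. *Slc1a2*, a glutamate transporter and the most abundant of them, had 1194 ± 167 and 795 ± 346 CPM (SD, n = 5 each). It passed as lower (−0.69, adjusted p = 8.18e-04, up to 0.0965 over the other fits) and was lower in 5 of 5 mice, and none of the 8 was at 0 in either population. The part of other cell types in the difference of *Cp* was not tested.

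*Aco1* (ENSMUSG00000028405, chr4:40143081-40198338) encodes iron regulatory protein 1, which is a cytosolic aconitase when it holds an iron-sulfur cluster. It had 16.6, 38.0, 29.1, 16.3 and 19.0 CPM in RFPneg1 to RFPneg5 and 5.04, 3.56, 13.1, 3.90 and 25.4 CPM in RFPpos1 to RFPpos5. Only RFPpos5 reached the range of RFPneg. With 45 counts in all, the log2 fold change of −1.29 had a 95% interval of −2.80 to 0.21 (adjusted p = 0.337 from edgeR). It was −0.83 without mouse 2 and −1.91 without mouse 5.

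*Ireb2* (ENSMUSG00000032293, chr9:54863789-54912530) encodes iron regulatory protein 2, whose amount is set by degradation when iron is plentiful. It had 82.8, 57.0, 97.1, 77.3 and 95.2 CPM in RFPneg1 to RFPneg5 and 75.6, 56.9, 43.7, 74.1 and 33.8 CPM in RFPpos1 to RFPpos5. The groups overlapped, and the libraries of mice 1, 2 and 4 were close while those of mice 3 and 5 were apart. Over the 5 mice the log2 fold change was −0.56, with a 95% interval of −1.25 to 0.14 (adjusted p = 0.389 from edgeR), and −0.32 without mouse 5. Relative to microglia genes, *Aco1* and *Ireb2* had log2 fold changes of −2.36 and −1.68 and both passed (adjusted p = 0.00576 and 3.31e-05).

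*Hmox1* (ENSMUSG00000005413, chr8:75093621-75100589) encodes the inducible heme oxygenase, which releases iron from heme. It had 5.52, 23.8, 31.6, 32.5 and 44.4 CPM in RFPneg1 to RFPneg5 and 45.3, 60.5, 65.6, 23.4 and 29.6 CPM in RFPpos1 to RFPpos5. RFPneg1, with 1 count, was the lowest library, and RFPpos was higher in mice 1, 2 and 3 and lower in mice 4 and 5. The log2 fold change was 0.66, with a 95% interval of −0.30 to 1.62 (adjusted p = 0.497 from edgeR), and −0.45 relative to microglia genes. It was 0.37 without mouse 1 and 1.02 without mouse 5.

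*Bach1* (ENSMUSG00000025612, chr16:87698945-87733346) encodes a heme-binding repressor of *Hmox1* and of the ferritin genes. It had 66.3, 23.8, 43.7, 85.4 and 57.1 CPM in RFPneg1 to RFPneg5 and 156, 78.3, 122, 144 and 76.1 CPM in RFPpos1 to RFPpos5. RFPneg4 lay above RFPpos2 and RFPpos5, and the other RFPneg libraries lay below all of RFPpos. *Bach1* was higher in 5 of 5 mice, by a log2 fold change of 1.07 with a 95% interval of 0.43 to 1.71 and an adjusted p of 0.0122 (edgeR), but it had −0.04 (adjusted p = 0.936) relative to microglia genes. The adjusted p was also 0.0903 with DESeq2, 0.0715 with reads on no gene in the library sizes, and 0.0521 and 0.0796 without mouse 1 and mouse 3.

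**Figure D3:**
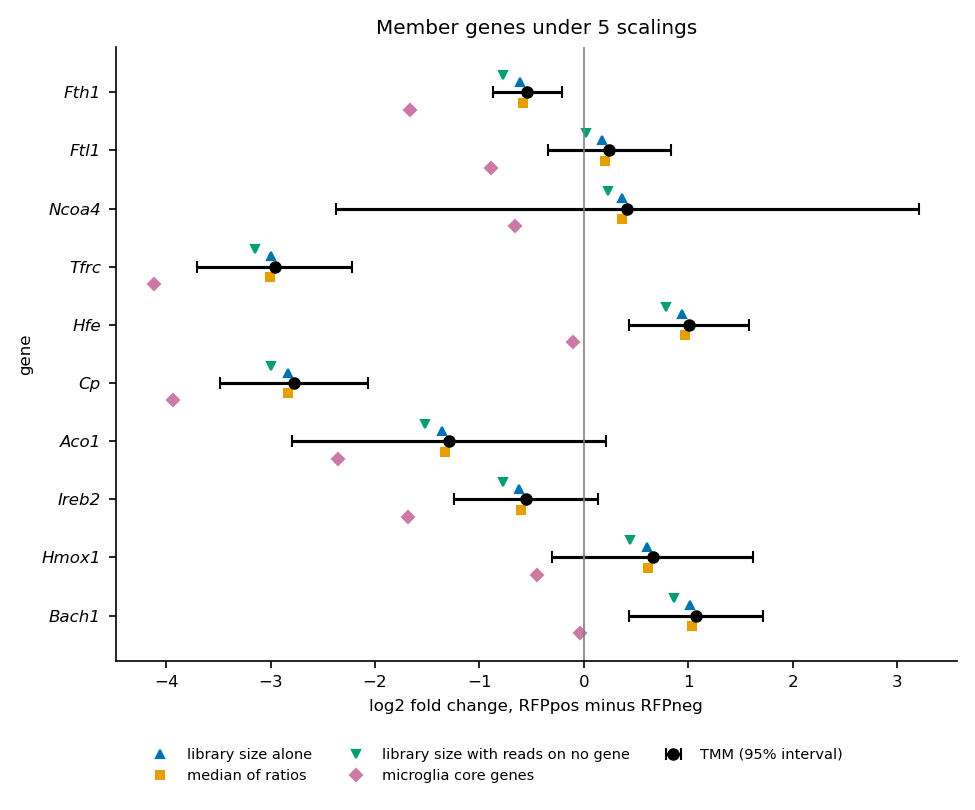
Log2 fold change, RFPpos minus RFPneg, of the 10 genes with TMM scaling (circles, with the 95% interval) and with 4 other scalings. With microglia core genes as the scale all values shift down, and *Hfe*, *Bach1*, *Hmox1*, *Ftl1* and *Ncoa4* change sign, while *Tfrc*, *Cp*, *Fth1*, *Aco1* and *Ireb2* stay negative under each scaling.

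Microglia genes, used as a scale above, differed between the populations. The 20 microglia core markers took 1.84%, 1.16%, 1.30%, 1.16% and 1.70% of the counts in RFPneg1 to RFPneg5 and 3.45%, 2.79%, 3.04%, 2.89% and 2.55% in RFPpos1 to RFPpos5. The groups did not overlap, all 20 markers passed as higher in RFPpos with a median log2 fold change of 1.26, and none was at 0. The most abundant, the fractalkine receptor *Cx3cr1*, had 2938 ± 791 CPM in RFPneg and 5689.5 ± 959 CPM in RFPpos (SD, n = 5 each). Scaling libraries to these markers moved the median over all genes by −1.10, and counting reads on no gene moved it by −0.22. With microglia scaling 0 of the 10 genes passed as higher and 6 as lower, against 16 and 5522 of the 12270 genes. Relative to microglia genes *Tfrc*, *Cp* and *Fth1* had log2 fold changes of −4.12, −3.94 and −1.66. Set against the microglia markers in the same library, there were 10.7, 17.1, 9.08, 5.39 and 7.46 ferritin counts per 100 marker counts in RFPneg1 to RFPneg5 and 2.40, 3.22, 3.01, 4.34 and 2.78 in RFPpos1 to RFPpos5. This value was lower in RFPpos in 5 of 5 mice, but its denominator was higher in RFPpos in 5 of 5 mice, so that a gene with an unchanged share would be lower too.

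Markers of other cells also differed. The study sorted viable cells as events negative for the dye DAPI and positive for the dye Draq5, and which of these other cells passed that gate was not tested. Monocyte and neutrophil markers took 0.258%, 0.288%, 0.687%, 0.428% and 0.238% of the counts in RFPneg1 to RFPneg5 and 0.00584%, 0.0110%, 0.0193%, 0.000399% and 0.000412% in RFPpos1 to RFPpos5. All 8 passed as lower, *Ly6c2* and *Chil3* were at 0 in RFPpos, and *S100a8*, a calcium-binding protein of neutrophils, led with 1927 ± 1188 CPM in RFPneg and 23.7 ± 23.5 CPM in RFPpos (SD, n = 5 each). Red cell markers, of interest because red cell precursors depend on iron, took 0.116%, 0.0943%, 0.147%, 0.196% and 0.0394% in RFPneg1 to RFPneg5 and 0.0117%, 0.00138%, 0%, 0.00599% and 0.00906% in RFPpos1 to RFPpos5. Of 5 tested, 3 passed as lower, *Alas2* was among the markers at 0 in RFPpos, and the globin gene *Hbb-bs*, which did not pass here (adjusted p = 0.0630) but did in 11 of 17 other fits (1.16e-46 to 0.194 over all of them), led with 777 ± 393 and 37.3 ± 35.1 CPM (SD, n = 5 each). Both lists separated the populations without overlap.

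Oligodendrocyte markers took 0.360%, 0.204%, 0.134%, 0.125% and 0.163% in RFPneg1 to RFPneg5 and 0.0364%, 0.0169%, 0.0305%, 0.0180% and 0.0198% in RFPpos1 to RFPpos5. All 10 passed as lower, *Opalin* was at 0 in RFPpos, and the myelin gene *Mbp* led with 558 ± 232 and 135 ± 109.7 CPM (SD, n = 5 each). Markers of pericytes, smooth muscle and fibroblasts took 0.0530%, 0.0612%, 0.0387%, 0.0724% and 0.0440% in RFPneg1 to RFPneg5 and 0.00135%, 0.00932%, 0.0157%, 0.0252% and 0.00824% in RFPpos1 to RFPpos5. Of these 7 of 9 passed as lower, *Kcnj8*, *Tagln* and *Lum* were at 0 in RFPpos, and *Vtn* led with 116 ± 25.1 and 48.4 ± 25.4 CPM (SD, n = 5 each). Choroid plexus and ependymal markers took 0.513%, 0.300%, 0.0923%, 0.179% and 0.0991% in RFPneg1 to RFPneg5 and 0.0350%, 0.0169%, 0.0439%, 0.163% and 0.0424% in RFPpos1 to RFPpos5. The groups overlapped because RFPpos4 was high, but this share was lower in RFPpos in 5 of 5 mice. None of 5 tested passed, and *Ccdc153* and *Tmem212* were at 0 in RFPpos. *Ttr*, which carries thyroid hormone, led with 2242 ± 1683 and 588 ± 552 CPM (SD, n = 5 each) and was lower in 5 of 5 mice. *Ttr* did pass as lower in 2 of 17 other fits, the likelihood ratio test and limma-voom (adjusted p = 1.83e-13 and 4.16e-08). The lists for neurons (3 of 7 lower, led by *Meg3*), border-associated macrophages (0 of 7 in either direction, led by *Mrc1*) and the dissociation response (1 of 8 lower, led by *Junb*) took at most 0.0584% of any library. The part of any of these cells in the differences of the iron genes was not tested.

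**Figure D4:**
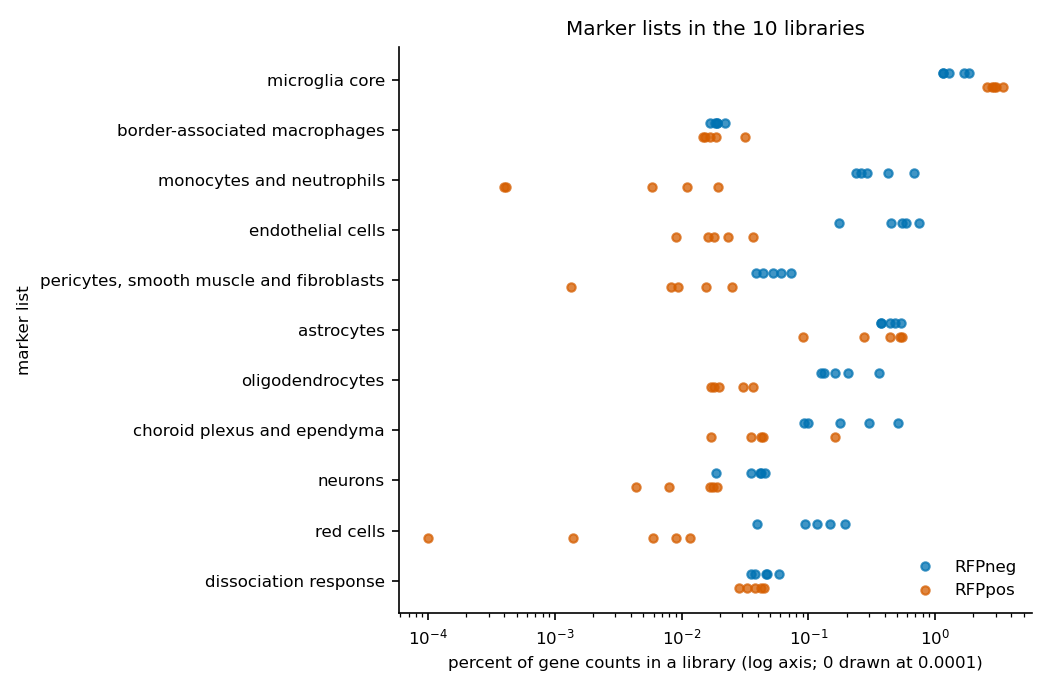
Percent of gene counts on each marker list (log axis) in the 5 RFPneg and 5 RFPpos libraries, a point for each library, with 0 drawn at 0.0001. The microglia core list lies higher in RFPpos, and the lists of endothelial cells, of monocytes and neutrophils, of oligodendrocytes, of mural cells and fibroblasts and of red cells lie lower without overlap.

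Genes that work with the 10 members were taken from 4 lists. Among 19 tested genes of iron transport and its control, 2 were higher and 1 was lower in RFPpos, with a median log2 fold change of −0.09 beside −0.15 over all genes, of which 4.25% passed as higher and 7.49% as lower. Relative to microglia genes 0 were higher and 9 lower, with a median of −1.22, beside 16 and 5522 of the 12270 genes and a median of −1.25. *Lrp1*, a receptor that takes up the heme carrier hemopexin among many ligands, rose from 239 ± 39.2 to 511 ± 53.3 CPM (SD, n = 5 each), by 1.11 on the log2 scale (adjusted p = 7.93e-07 from edgeR), but by −0.02 relative to microglia genes. *Herc2*, a ubiquitin ligase, differed by 0.70 on the log2 scale (adjusted p = 0.00830, from 0.00220 to 0.172 over the other fits) and −0.43 relative to microglia genes. *Lcn2*, which binds bacterial iron carriers and is abundant in neutrophils, had 83 counts in RFPneg and 2 in RFPpos, a ratio of 38.1 with an exact counting interval of 10.2 to 320.03 (95%), and passed (adjusted p = 6.66e-09 from edgeR). Its fall went with that of the monocyte and neutrophil markers, whose part in it was not tested.

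The carrier, importer and exporter that meet *Tfrc* on the path of iron did not pass with TMM scaling. *Trf*, which encodes transferrin, had 530.1, 418, 277, 268 and 285 CPM in RFPneg1 to RFPneg5 and 433, 388, 389, 453 and 275 CPM in RFPpos1 to RFPpos5. *Slc40a1*, the exporter with the hairpin shown above, had 60.7, 90.3, 97.1, 126 and 108 CPM in RFPneg1 to RFPneg5 and 116, 110.3, 114, 93.6 and 63.4 CPM in RFPpos1 to RFPpos5. The groups overlapped for both genes, with log2 fold changes of 0.16 for *Trf* (adjusted p = 0.744) and 0.03 for *Slc40a1* (adjusted p = 0.978), which were −0.97 and −1.10 relative to microglia genes and then passed as lower (adjusted p = 3.23e-05 and 0.00222). *Slc11a2*, which moves iron out of endosomes, had a log2 fold change of 0.44 (95% interval −0.58 to 1.45, adjusted p = 0.728), and −0.68 relative to microglia genes (adjusted p = 0.288).

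Among 19 tested genes of heme synthesis, transport and breakdown, none was higher and 2 were lower, with a median of −0.60, beside 4.25% higher and 7.49% lower and a median of −0.15 over all genes. With reads on no gene in the library sizes 4 were lower, beside 1223 of the 12270 genes, and relative to microglia genes 8 were lower with a median of −1.61, beside 5522 and −1.25. *Cpox*, an enzyme of heme synthesis, had 197 ± 39.8 and 83.2 ± 18.2 CPM (SD, n = 5 each), without overlap and lower in 5 of 5 mice, or −1.24 on the log2 scale (adjusted p = 7.26e-05 from edgeR). *Slc48a1*, which exports heme from endosomes and lysosomes, had 144, 95.1, 84.9, 114 and 111 CPM in RFPneg1 to RFPneg5 and 35.3, 17.8, 91.8, 31.2 and 4.23 CPM in RFPpos1 to RFPpos5. It was lower in RFPpos in 4 of 5 mice, with RFPpos3 alone inside the RFPneg range, and its log2 fold change was −1.74 (adjusted p = 6.73e-05). For *Slc48a1* this was −2.41 without mouse 3 and −1.35 without mouse 5. Both genes passed in 17 of 17 other fits. *Hmox2*, the constitutive heme oxygenase, differed by 0.62 on the log2 scale (adjusted p = 0.270), and by −0.51 relative to microglia genes.

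Among 22 tested genes of iron-sulfur clusters, none was higher and 2 were lower, with a median of −0.36, beside 4.25% and 7.49% over all genes. Relative to microglia genes 15 were lower, with a median of −1.53, beside 5522 of the 12270 genes and −1.25. *Glrx5*, which hands on clusters in mitochondria, had 71.6 ± 22.6 and 25.3 ± 20.1 CPM (SD, n = 5 each) and differed by −1.57 on the log2 scale (adjusted p = 0.00622 from edgeR, up to 0.0530 over the other fits). *Bola3*, which works with it, had 57 and 12 counts and differed by −2.04 (adjusted p = 0.0181, up to 0.104). Both were lower in RFPpos in 5 of 5 mice. Among 16 tested genes regulated by NRF2 and BACH1, 1 was higher and none was lower, with a median of −0.30, beside the same 4.25% and 7.49% over all genes. Relative to microglia genes 0 were higher and 10 lower, with a median of −1.40, beside 16 and 5522 of the 12270 genes and −1.25. *Mafg*, the small partner protein of NRF2 and BACH1, differed by 0.76 (adjusted p = 0.0156, up to 0.244 over the other fits) and by −0.36 relative to microglia genes, where it did not pass. *Nfe2l2*, which encodes NRF2, had 0.47 (adjusted p = 0.149), but passed as lower relative to microglia genes (−0.66, adjusted p = 0.0118) and as higher without mouse 5 (0.72, adjusted p = 0.0144). Without mouse 1 or mouse 2 it had 0.34 or 0.27 and did not pass. *Gclm*, an enzyme of glutathione synthesis, and *Nqo1*, a quinone reductase with 11 counts, had −0.25 and −0.33 (adjusted p = 0.821 and 0.944), and *Gclm* passed as lower relative to microglia genes (−1.39, adjusted p = 0.00320).

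**Figure D5:**
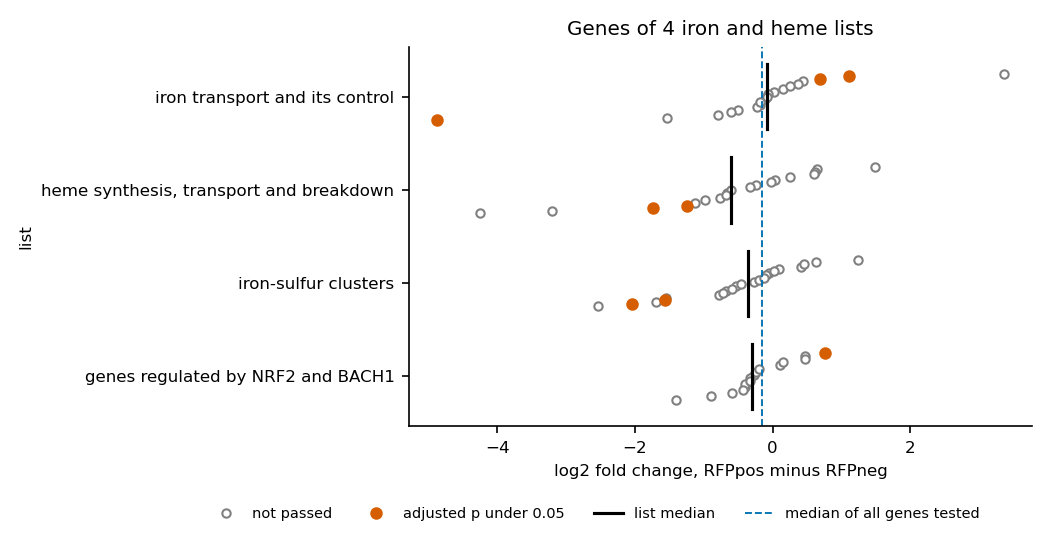
Log2 fold change, RFPpos minus RFPneg, of each tested gene of the 4 lists, filled where the adjusted p was under 0.05, with the list median as a black bar and the median of all genes tested as a dashed line. The medians are −0.09 for iron transport, −0.60 for heme, −0.36 for iron-sulfur clusters and −0.30 for NRF2 and BACH1, beside −0.15 over all genes. Of the genes shown (19, 19, 22 and 16 tested in the lists as ordered above) 8 passed, 3 higher and 5 lower. Over all genes tested 4.25% passed as higher and 7.49% as lower. Scaling to microglia genes moved the median of all genes by −1.10. With it the 3 higher genes had −0.02 (*Lrp1*), −0.43 (*Herc2*) and −0.36 (*Mafg*).

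The genes whose pattern over the 10 libraries was nearest to that of *Fth1* were sought among 1610 genes with a mean of at least 100 CPM, by the root mean square difference of centred log2 CPM. They were *Bub3* (0.28), a spindle checkpoint gene, *Smim15* (0.28), *Serf2* (0.28), *Cox6c* (0.29), a subunit of cytochrome c oxidase, and *Atp6v1a* (0.31), a subunit of the proton pump of lysosomes. Each had, like *Fth1*, its lowest RFPneg level in RFPneg4 (from 40.7 CPM for *Serf2* to 354 CPM for *Cox6c*). Genes chosen by nearness of pattern are likely to share such a level, so this is no separate result. Of these genes only *Cox6c* passed (log2 fold change −0.82, adjusted p = 3.96e-04 from edgeR), beside 11.7% of all genes tested.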

How the data were processed

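Bulk libraries of 10 of the 12 samples were analysed, and the 2 single-cell samples were not used here. The authors sorted viable cells, made QuantSeq 3′ libraries and deposited counts per gene from the Lexogen FWD UMI pipeline, without normalization. The submitters' notes name mm10, and the bulk annotation is not given in the sources used here. Symbols (47224 of 47643 identifiers) and coordinates come from GENCODE M21 (GRCm38). Reads on no gene (32.1% to 48.6% of reads per library) and ambiguous reads (0.295% to 0.436%) stayed out of library sizes.

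Genes with at least 10 counts in all were fitted with edgeR 4.0.16 in R 4.3.3 (estimateDisp, glmQLFit with robust set, glmQLFTest; TMM; mouse as a block), with Benjamini-Hochberg adjustment over all genes tested; a gene passed at an adjusted p under 0.05. In this fit the spread of 11855 of the 12270 genes was taken from the trend over genes of like abundance. Alternatives used DESeq2 1.42.0 and limma 3.58.1. Single values were compared by exact exchange of labels within mice (32 assignments). The fit was tested on simulated data. At this depth a gene that did not pass may still differ. According to the methods both populations were sorted from the same mice. Libraries with the same number were taken as 1 mouse, which the methods do not state. Ages set apart only mice 1 and 2 (113 and 115 weeks), the others being 116 weeks. Deviations from the group means correlated by 0.10, −0.003, 0.05, 0.004 and 0.008 within mice 1 to 5. No libraries of a population agreed within sampling noise.

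Named genes were the members, ferritin pseudogenes with counts, up to 5 passed genes per direction of each pathway list, 7 fixed genes (*Slc40a1*, *Slc11a2*, *Trf*, *Hmox2*, *Nfe2l2*, *Gclm*, *Nqo1*), the most abundant gene of each marker list and the 5 genes nearest to *Fth1*. *Cdkn2a* and *Hps3* were looked up beside this rule, as was whether a marker was at 0. Members and lists were chosen with earlier results of these data known. Scaling, filters, tests, thinning and omitted mice were varied. Intervals and limits for low counts cover counting error only.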

Additional observations from a re-analysis of the deposited data

Results flagged for a closer look

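Each value of the named genes, the marker lists and the ferritin measures was compared with the other 4 libraries of its population, in 116 groups of 5. A library was picked out when its gap to the nearest other library was over 0.71 of the whole range. Chance picks out about 1 in 20 groups, or 5.8 here, and 7 were found. None concerned a value of the 10 iron genes themselves. *Slc11a2* had 47.5 CPM in RFPneg2, against 19.4 to 25.4 in the other RFPneg libraries. *Ttr* had 1556.5 CPM in RFPpos4 (others 160.1 to 435), and the choroid plexus and ependymal list, which contains it, took 0.163% of the counts there (others 0.0169% to 0.0439%). The border-associated macrophage list took 0.0318% in RFPpos2 (others 0.0148% to 0.0185%). The remaining 3 were single libraries with 1 or 2 counts of a ferritin pseudogene, the others being at 0: *Gm12164* and *Gm15590* with 2.43 CPM each in RFPneg3, and *Ftl1-ps2* with 7.12 CPM in RFPpos2.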

How the results depend on the processing

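*Tfrc* and *Cp* passed as lower in each of 17 other fits. With microglia genes as the scale 0 members were higher and 6 lower (all genes 16 and 5522). No member was higher with DESeq2 (all genes 306 higher, 543 lower) or with reads on no gene in the library sizes (318 higher), a setting added, like edgeR's adjustment for small counts, after seeing the data. A fold threshold left 334 genes higher, and filterByExpr, which tested 4144 genes, 423 lower. Leaving out mice gave 1 to 2 members higher and 2 to 3 lower (all genes 421 to 533 and 655 to 798), ratio differences of −0.89 to −0.64 and share differences of −0.0762 to −0.0321 percentage points. Ferritin per 100 microglia counts, whose denominator itself was higher in RFPpos, differed by −6.79.

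Without pairing (no mouse block), 2 members were higher and 3 lower (all genes 580 and 1077), and no member's call changed, but *Slc1a2* (adjusted p = 0.0965) and *Meg3* (0.295) were lost and *Hbb-bs* (0.00353) was gained.

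With microglia scaling, which moved the median of all genes by −1.10, signs changed for *Ftl1* (−0.89), *Hmox1* (−0.45), *Hfe* (−0.11), *Ncoa4* (−0.66), *Bach1* (−0.037), *Lrp1* (−0.0197), *Herc2* (−0.43), *Slc40a1* (−1.10), *Slc11a2* (−0.68), *Trf* (−0.97), *Hmox2* (−0.51), *Mafg* (−0.36), *Nfe2l2* (−0.66), *Cx3cr1* (−0.15), *Mrc1* (−0.46) and *Junb* (−1.07). With reads on no gene they changed for *Slc40a1* (−0.19), *Trf* (−0.0692) and *Junb* (−0.16), with library size for *Slc40a1* (−0.0367) and *Junb* (−0.0064), and with median-of-ratios factors for *Slc40a1* (−0.0208). Leaving out mice gave −0.16 to 0.23 for *Slc40a1*, −0.15 to 0.32 for *Junb* and −0.36 to 0.0362 for *Smim15*. For *Nqo1*, which was not fitted without mouse 3 or mouse 4, leaving out mouse 1, 2 or 5 gave −0.31 to 0.14. *Cx3cr1* is itself part of the microglia scale, so that its sign change there is no test of this gene. Beyond the scaling used or the mouse left out, the causes of the sign changes were not tested. Among the members depth limits *Ncoa4*, *Aco1* and *Hmox1* most, with 13, 45 and 95 counts.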
